A study of Arabidopsis thaliana with 18 samples.

Results

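Gene expression at the end of the night was compared with that at the end of the day in rosettes of SnRK1α1-OE, an Arabidopsis thaliana line in Col-0 that carries 35S::SnRK1alpha1. The comparison set 3 libraries harvested at EN (zeitgeber time, ZT, 24 h) against 3 harvested at ED (ZT 12 h). It took in every gene whose deposited normalised value reached 10 in at least 3 of these 6 libraries, which held for 19570 of 32833 genes. In all, 18 libraries were sequenced, with 3 at each time for SnRK1α1-OE, for the wild type Col-0 and for sesquiα2, a partial loss-of-function mutant (snrk1α1-/- snrk1α2+/-). Each library came from a pool of whole rosettes of untreated plants aged 20 days, grown with 12 h of light at 160 µmol, 22 °C in the light and 18 °C in the dark. SnRK1α1-OE and Col-0 plants were sown on soil, whereas sesquiα2 plants were first selected on BASTA plates. The 35S promoter drives the transgene in most cell types and at all times of day, and the labels give 1 overexpressor genotype. Light, temperature, the circadian phase and the sucrose and starch contents that the study measured changed together between EN and ED. Their parts cannot be told apart here. In whole rosettes, fewer cells of a type and less RNA per cell cannot be told apart either.

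Many Arabidopsis transcripts cycle over the day, driven by an internal circadian clock and by light, temperature and sugars. The clock is built from transcription factors that repress or activate one another in turn, with morning-phased factors such as CCA1 and LHY peaking around dawn and evening-phased factors such as TOC1 and GI peaking around dusk. Leaves store part of the daily photosynthate as starch and break it down during the night. SnRK1 (SNF1-related protein kinase 1) is a kinase complex that is active when carbon and energy are short, and its catalytic subunit SnRK1α1 turns on many genes of catabolism.

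The 6 libraries held 35497381 to 40416618 reads, and the deposited values are scaled to a common total, so that a value can be read as reads in a library of that total (37929842 to 37930198). Replicates resembled each other more than the other time point, with Pearson r of log2 values from 0.982 to 0.989 within a time and from 0.906 to 0.932 between times. The transcript of SnRK1α1 (chr3:31145-34670, TAIR10.1) had values of 29575, 29352 and 28713 in SnRK1α1-OE and of 1961, 1883 and 1991 in Col-0 at EN. At ED it had 32681, 29302 and 30494 in SnRK1α1-OE and 1740.0, 1707 and 1685 in Col-0, so the overexpression was present in every library of the line at both times. EN library 1 lay closest to ED, since it had the lowest of the 3 EN values in 775 of the genes that rose (50.2%) and the highest in 1240 of those that fell (67%). Of the marker lists for other organs, 1 of 5 root markers (PYK10) and 1 of 5 flower markers (AG) reached the filter. The root hair genes EXP7 and EXP18 were at 0 in all 6 libraries, but the 5 root markers summed to 1577 to 2462 at EN and 1944 to 2573 at ED. The flower markers summed to 15.04 to 20.31 at EN and 21.37 to 35.9 at ED. The leaf mesophyll markers summed to values of 1733000 to 2023000 at EN and 1328000 to 1546000 at ED. Such a sum follows its most abundant members. The median log2 fold change of the 6 mesophyll markers, EN over ED, was 0.16, and 0.04 with quantile normalization. The 4 guard cell markers summed to 1795 to 2141 at EN and 2334 to 2733 at ED, and the 3 phloem companion cell markers to 14880 to 15870 at EN and 8319 to 10420 at ED. The part of cell composition in the results was not tested.

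In SnRK1α1-OE, 3394 of the 19570 genes (17.3%) were called. A call took an adjusted p below 0.05 in limma and a log2 fold change of 1 or more in either direction. The fold is EN over ED on the scale of log2(value + 1). Of these, 1543 rose at EN (7.88% of the genes tested) and 1851 fell (9.46%). These shares are the background for the counts of each gene list below. The call rested on both conditions, since 8902 genes (45.5%) had an adjusted p under 0.05 at any size of change. All 3 EN values lay on 1 side of all 3 ED values in 10818 genes (55.3%), and in 3346 of the genes called. The median log2 fold change over all genes tested was −0.03, and the median of its absolute size was 0.44 with a median SE of 0.16. A log2 fold change of at least 2 was found for 411 genes that rose, and one of −2 or below for 438 that fell. At least 6 was found for 16 genes, and −6 or below for 15. The split of the calls depended on the scaling of libraries, with 45.5% upward with the deposited values, 48.3% with median-ratio scaling and 49.8% with quantile normalization. Of the genes tested, 1165 did not reach 10 in all 6 libraries, and 23 genes were called with a mean under 1 in 1 time and all 3 values at 10 or more in the other, genes that entered only through the time at which they were high. The gene just inside the filter, AT3G48240, had a third-highest value of 10.14, and the gene just outside it, RAP2-6, one of 9.93.

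Genes of the circadian clock were among those with the largest differences in both directions. Of 13 morning-phased clock genes tested, 8 rose and 1 fell, with a median log2 fold change of 6.08, against −0.03 over all genes. CCA1, a MYB-related repressor at the core of the clock (chr2:19245591-19248915), had 21839, 27764 and 30067 at EN, against 58.7, 78.8 and 44.2 at ED, and its log2 fold change was 8.78, with an SE of 0.20 (adjusted p = 1.16e-08). Its close relative LHY (chr1:33365-37871) had 41478, 49789 and 52501 at EN, against 88.6, 86.6 and 98.1 at ED, and its log2 fold change was 9.02, with an SE of 0.12 (adjusted p = 4.77e-10). In both genes every EN value lay far above every ED value. RVE1, a MYB-related factor that links the clock to auxin production, had 8525, 11409.6 and 12520.1 at EN, against 91.6, 71.9 and 87.5 at ED, with a log2 fold change of 6.99 (SE 0.16). RVE8, an activator of evening genes, had 5818, 5933 and 6342 at EN, against 68.0, 47.8 and 86.0 at ED, with a log2 fold change of 6.50 (SE 0.19). RVE4, which acts with RVE8, had 10041, 11791 and 12468 at EN, against 1215, 1184 and 1254 at ED, with a log2 fold change of 3.22 (SE 0.12). The night-light-inducible LNK proteins, which bind RVE8 and serve as its coactivators, rose with it in 3 of 4 cases. LNK2 had 26491, 32982 and 32003 at EN, against 339, 347 and 273 at ED, with a log2 fold change of 6.57 (SE 0.14). LNK3 and LNK4 had log2 fold changes of 6.10 (SE 0.13) and 6.08 (SE 0.13), whereas LNK1, at 681, 758 and 815 at EN, against 416, 429 and 342 at ED, had one of 0.93 (SE 0.14) and stayed below the limit of 1. RVE2, RVE6 and RVE7 were not called, with log2 fold changes between 0.11 and 0.35. PRR7, a pseudo-response regulator that represses CCA1 and LHY in the daytime, was the only morning-phased gene to fall, with 233, 253 and 204 at EN, against 1325, 1419 and 917 at ED. PRR9, the earliest of the pseudo-response regulators, stayed below the filter, with 5.78, 1.92 and 13.0 at EN, against 4.16, 7.33 and 6.39 at ED.

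None of the 12 evening-phased clock genes rose and 8 fell, with a median log2 fold change of −3.17. FKF1, a blue-light receptor with an F-box that marks repressors of flowering for degradation (chr1:25508639-25510907), gave no read in any EN library, against 1267, 1375 and 1343 at ED. Set against a floor of 3 reads per library, FKF1 was at least 466-fold lower at EN. Its fitted log2 fold change, which depends on the pseudocount, was the lowest of the genes named by rank. GI, a partner of FKF1 and of the F-box protein ZTL, had 7.68, 18.8 and 9.41 at EN, against 1753, 2008 and 1147 at ED, and its log2 fold change was −7.04, with an SE of 0.33 (adjusted p = 3.64e-07). ELF4, a small protein of the evening complex that represses daytime genes during the night, had 24.2, 12.3 and 19.7 at EN, against 2618, 2246 and 2856 at ED, and its log2 fold change was −7.07, with an SE of 0.24 (adjusted p = 5.51e-08). LUX, the DNA-binding member of that complex, had 318, 305 and 288 at EN, against 2592, 2241 and 2728 at ED, with a log2 fold change of −3.04 (SE 0.12). Its paralogue BOA had 82.2, 51.0 and 57.3 at EN, against 622, 519 and 719.7 at ED, with a log2 fold change of −3.29 (SE 0.22). For LUX and BOA, 38.5% and 47.9% of the gene span is shared with a gene on the opposite strand. Reads of the partner may be part of these values, or reads of the shared part may be missing from them. ELF3, the scaffold of the evening complex, had 1025, 1112 and 1176 at EN, against 2209, 2588 and 1734 at ED, and its log2 fold change of −0.96 (SE 0.15) stayed below the limit. It passed without ED library 3 or EN library 3 and under quantile normalization. The evening-phased pseudo-response regulators also fell. TOC1 had 778, 715 and 715 at EN, against 5258, 5400.1 and 4309.7 at ED, with a log2 fold change of −2.75 (SE 0.12). PRR5 had 21.3, 15.1 and 20.6 at EN, against 467, 503 and 437 at ED, with a log2 fold change of −4.57 (SE 0.21). PRR3, which binds TOC1 protein, had 46.5, 28.3 and 31.0 at EN, against 3281, 2979 and 3111 at ED, with a log2 fold change of −6.46 (SE 0.19). The 3 genes thus differed in size, PRR3 by far the most, and in none of them did the EN and ED values overlap. ZTL and LKP2, the relatives of FKF1, were not called and had log2 fold changes of 0.62 (SE 0.13) and 0.70 (SE 0.14), and CHE, a regulator of CCA1, one of 0.16 (SE 0.11).

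**Figure D1:**
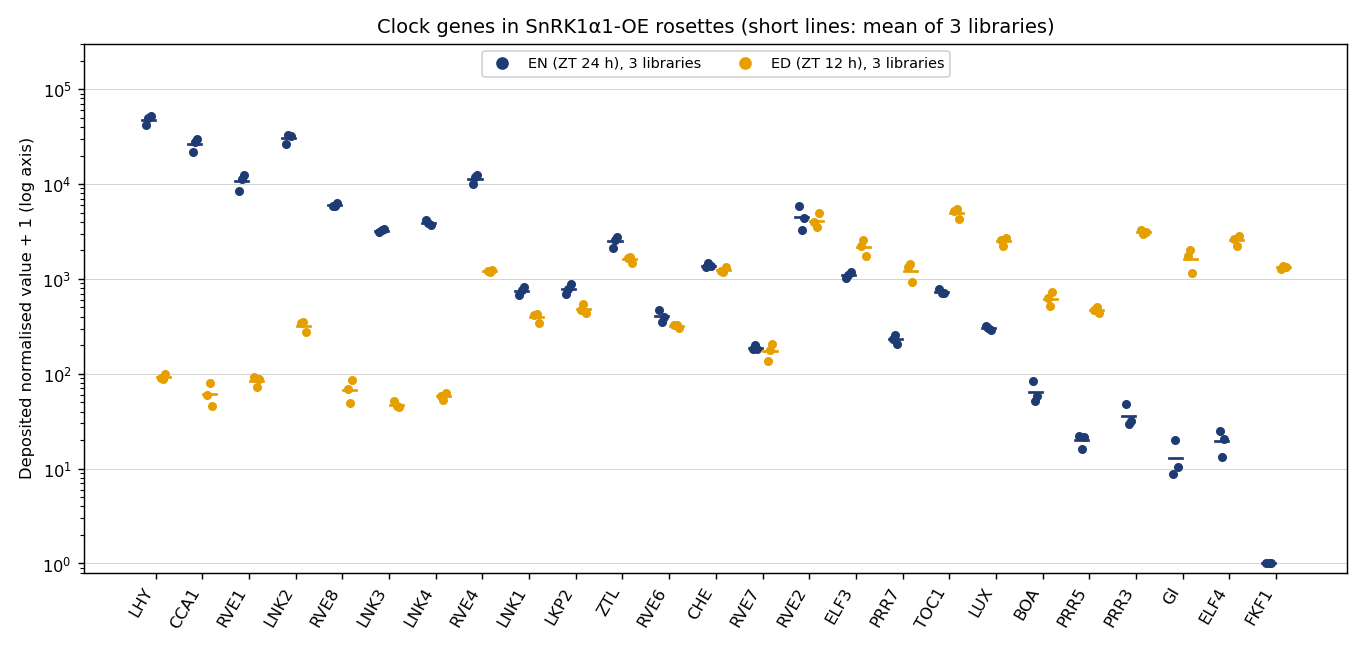
Deposited normalised value plus 1 (log axis) of the 25 clock genes tested in SnRK1α1-OE, ordered by log2 fold change. Each point is 1 library, with the 3 EN libraries left of the 3 ED libraries and a bar at each mean. The left end holds LHY and CCA1, with EN far above ED, and the right end holds FKF1, at 0 in all EN libraries.

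The stretch of 300 bases before the annotated gene start was read for 19434 of the genes tested from the TAIR10.1 assembly (RefSeq), to set known clock motifs beside the changes. 4 motifs were searched on both strands. They were the evening element AAAATATCT and the CCA1-binding site AAAAATCT, which MYB-related clock factors bind, the G-box CACGTG, which bHLH and bZIP factors bind, and the telo-box AAACCCTA, common before genes of ribosome assembly. Matches of 2 different motifs overlapped in 1 promoter only, an evening element with a telo-box. The evening element was found before 150 of 1849 genes that fell (8.11%), 24 of 1542 that rose (1.56%) and 577 of all 19434 (2.97%). Among genes with a log2 fold change of −2 or below the share was 14.8% (65 of 438), and at −4 or below it was 19.4% (12 of 62). Among genes at 2 or above it was 1.7% (7 of 411), and at 4 or above 1.54% (1 of 65). The CCA1-binding site showed no such split, with 7.46% of the genes that rose, 8.27% of those that fell and 7.97% of all. The G-box was found before 10.3% of the genes that rose, 9.41% of those that fell and 7.97% of all, and before 14.4% of those at 2 or above and 15.1% of those at −2 or below. The telo-box was found before 5.95% of the genes that fell, 1.88% of those that rose and 4.35% of all. These shares describe the windows and were not tested. The windows of 4 genes that fell and 3 that rose are shown, because they hold the motif whose share differed most with direction or the G-box, with each match in capitals on the strand of the gene. They lie at chr1:25508339-25508638 (FKF1, plus strand), chr5:8358547-8358846 (PRR5, minus strand), chr5:24674663-24674962 (TOC1, plus strand), chr4:5783609-5783908 (ISA3, plus strand), chr1:37872-38171 (LHY, minus strand), chr2:19245291-19245590 (CCA1, plus strand) and chr5:6225656-6225955 (BAM9, plus strand).
FKF1: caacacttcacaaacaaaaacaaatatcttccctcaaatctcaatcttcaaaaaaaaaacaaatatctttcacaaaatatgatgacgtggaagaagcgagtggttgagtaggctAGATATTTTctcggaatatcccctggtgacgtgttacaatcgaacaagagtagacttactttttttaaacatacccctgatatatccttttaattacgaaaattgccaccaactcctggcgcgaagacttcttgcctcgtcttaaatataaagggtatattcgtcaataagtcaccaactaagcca
PRR5: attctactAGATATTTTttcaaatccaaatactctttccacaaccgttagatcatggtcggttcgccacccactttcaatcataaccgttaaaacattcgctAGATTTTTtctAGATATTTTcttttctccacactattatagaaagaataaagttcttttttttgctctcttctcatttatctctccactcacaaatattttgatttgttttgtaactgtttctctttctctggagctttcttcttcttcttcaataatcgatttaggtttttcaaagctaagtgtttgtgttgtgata
TOC1: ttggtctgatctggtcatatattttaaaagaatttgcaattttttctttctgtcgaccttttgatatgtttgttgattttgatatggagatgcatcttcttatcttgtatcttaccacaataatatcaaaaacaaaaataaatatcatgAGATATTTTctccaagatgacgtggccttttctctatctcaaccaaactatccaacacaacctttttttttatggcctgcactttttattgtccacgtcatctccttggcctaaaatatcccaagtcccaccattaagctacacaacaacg
ISA3: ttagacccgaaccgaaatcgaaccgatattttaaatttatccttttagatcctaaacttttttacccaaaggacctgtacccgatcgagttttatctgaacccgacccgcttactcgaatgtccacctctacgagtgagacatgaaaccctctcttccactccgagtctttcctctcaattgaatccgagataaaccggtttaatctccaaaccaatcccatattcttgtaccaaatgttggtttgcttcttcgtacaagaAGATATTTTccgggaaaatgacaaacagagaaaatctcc
LHY: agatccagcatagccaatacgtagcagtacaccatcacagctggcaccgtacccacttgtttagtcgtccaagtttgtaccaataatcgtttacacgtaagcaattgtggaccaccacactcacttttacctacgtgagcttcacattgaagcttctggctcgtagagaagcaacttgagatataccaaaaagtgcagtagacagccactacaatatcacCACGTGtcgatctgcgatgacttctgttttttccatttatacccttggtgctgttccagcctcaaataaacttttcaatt
CCA1: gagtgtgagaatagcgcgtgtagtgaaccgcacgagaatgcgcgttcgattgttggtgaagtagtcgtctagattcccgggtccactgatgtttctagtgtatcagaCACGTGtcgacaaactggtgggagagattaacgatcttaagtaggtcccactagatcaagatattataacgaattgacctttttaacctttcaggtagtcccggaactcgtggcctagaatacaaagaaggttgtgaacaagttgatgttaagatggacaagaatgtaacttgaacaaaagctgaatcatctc
BAM9: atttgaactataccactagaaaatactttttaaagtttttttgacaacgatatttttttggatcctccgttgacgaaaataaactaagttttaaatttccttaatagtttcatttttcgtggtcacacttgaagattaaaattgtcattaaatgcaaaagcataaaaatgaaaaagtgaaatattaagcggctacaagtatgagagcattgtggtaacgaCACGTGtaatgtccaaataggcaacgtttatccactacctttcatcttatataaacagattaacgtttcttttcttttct
In the first 4 the capitals mark evening elements or their reverse complement, and PRR5 also holds a CCA1-binding site between its 2 evening elements. In LHY, CCA1 and BAM9 the capitals mark a G-box.

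Of 8 genes of the flowering time and CONSTANS list that were tested, 5 rose and none fell (median log2 fold change 2.50). CDF2, a Dof factor that represses CONSTANS in the morning and is degraded through FKF1 and GI, had 4361, 5428 and 5243 at EN, against 182, 169.8 and 137 at ED, with a log2 fold change of 4.94 (SE 0.14). CDF1, CDF3 and CDF5 had log2 fold changes of 2.68 (SE 0.17), 2.32 (SE 0.11) and 3.72 (SE 0.30). Of the CDF5 span, 56.7% is shared with an opposite-strand RNA gene. COL2, a B-box relative of CONSTANS, had 9383, 10641 and 11037 at EN, against 110.1, 121 and 76.3 at ED, and its log2 fold change was 6.67, with an SE of 0.17 (adjusted p = 1.45e-08), with 32.1% of its span shared with an opposite-strand gene. CO, SOC1 and FLC were not called, and an opposite-strand gene shares 67.3% of the CO span and all of FLC. The florigen genes FT and TSF were below the filter, with values under 17 in all 6 libraries. COL1 is overlapped along its whole span by an opposite-strand gene and was at 0 throughout, so its level cannot be read. In the light signalling list 14 of 21 genes rose and 1 fell (median 1.19). PIF5 and PIF4, bHLH factors that promote growth in the dark and are degraded through phytochromes, moved in opposite directions. PIF5 had 4498, 6439 and 6081 at EN, against 675, 720.4 and 617 at ED, with a log2 fold change of 3.06 (SE 0.15). PIF4 had 220.4, 198 and 158 at EN, against 914, 1025 and 777 at ED, with a log2 fold change of −2.24 (SE 0.17). PHYA, the photoreceptor that accumulates in the dark, had 4015, 5157 and 4818 at EN, against 1406, 1523 and 1405 at ED, with a log2 fold change of 1.68 (SE 0.12), and the blue-light receptor CRY1 had one of 1.46 (SE 0.14), while PHYB and CRY2 were not called. ELIP2, a chlorophyll-binding protein induced by strong light, had 1304, 1364 and 1327 at EN, against 52.6, 51.8 and 68.0 at ED, with a log2 fold change of 4.52 (SE 0.15). HYH and its relative HY5, bZIP factors of light-induced growth, had log2 fold changes of 2.30 (SE 0.21) and 0.08 (SE 0.16), and HY5 was not called. RUP1 and RUP2, which switch off the UV-B receptor, had 2.07 (SE 0.17) and 2.67 (SE 0.13). The calls of PIF1, SPA1 and ELIP1 were close to the limit and were lost without 1 library, PIF1 without ED library 3 or EN library 2, SPA1 without ED or EN library 3 and ELIP1 without ED library 2.

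Transcripts for starch breakdown were lower at the end of the night for most steps. Of 19 genes tested, 12 fell and 2 rose, with a median log2 fold change of −2.19. GWD1, the dikinase that phosphorylates glucan chains at the granule surface, had 3510.5, 4199.5 and 4924 at EN, against 20955, 22559 and 14549 at ED, with a log2 fold change of −2.19 (SE 0.18), and PWD, which acts after it, had one of −1.90 (SE 0.15). The glucan phosphatases SEX4 and LSF2 had −2.95 (SE 0.12) and −2.13 (SE 0.20), and LSF1 was just below the limit with a size of −0.997 (SE 0.12), which it passed without ED library 1, ED library 3 or EN library 3. The debranching enzyme ISA3, whose window with an evening element is shown above, had 544, 439 and 450.5 at EN, against 5459, 5563 and 4509.5 at ED, with a log2 fold change of −3.43 (SE 0.13). PHS2, the cytosolic glucan phosphorylase, had 1473, 1344 and 1544 at EN, against 29186, 29775 and 25218 at ED, and its log2 fold change was −4.27, with an SE of 0.11 (adjusted p = 1.57e-08). AMY3, the plastidial alpha-amylase, had 493, 415 and 382 at EN, against 12338, 14070.5 and 10868 at ED, and its log2 fold change was −4.85, with an SE of 0.14 (adjusted p = 2.37e-08). DPE1 and DPE2, the glucanotransferases that handle maltotriose in the plastid and maltose in the cytosol, had log2 fold changes of −2.75 (SE 0.14) and −2.67 (SE 0.13), and the plastidial phosphorylase PHS1 one of −2.81 (SE 0.14). In ISA3, PHS2 and AMY3 no EN value reached the ED range. The beta-amylases, which release maltose, were divided. BAM5, an isoform outside the plastid, had 8.71, 4.73 and 7.50 at EN, against 773, 1397 and 1047 at ED, with a log2 fold change of −7.06 (SE 0.29), and BAM6 had one of −2.64 (SE 0.18). BAM9, a protein without catalytic activity, had 23112, 26345 and 32259 at EN, against 455, 459 and 460.5 at ED, with a log2 fold change of 5.88 (SE 0.13), and BAM1, a plastidial enzyme, had one of 1.25 (SE 0.14). BAM3, the main beta-amylase of leaf starch breakdown at night, had 28701, 31817 and 37126 at EN, against 19949, 19066 and 20616 at ED, and BAM4, its noncatalytic regulator, 955, 859 and 806 at EN, against 647, 466 and 559 at ED. Neither was called, and 27.9% of the BAM6 span and 21.2% of the BAM3 span are shared with opposite-strand genes. The maltose exporter MEX1 and the limit dextrinase LDA were not called either, with log2 fold changes of −0.80 (SE 0.12) and −0.29 (SE 0.18).

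In starch synthesis 6 of 15 genes fell and 2 rose, with a median of −0.38. GBSS1, the granule-bound starch synthase that makes amylose (chr1:11920390-11923866), had 9939, 15467 and 16629.6 at EN, against 118, 91.9 and 96.2 at ED, and its log2 fold change was 7.06, with an SE of 0.20 (adjusted p = 2.07e-08). PTST1, the protein that brings GBSS1 to the granule, fell, with 144, 142 and 109 at EN, against 766, 774 and 819 at ED and a log2 fold change of −2.58 (SE 0.15). SS2, a soluble synthase, had a log2 fold change of 1.21 (SE 0.12), and SS4, which takes part in granule initiation, one of −1.12 (SE 0.13). The branching enzyme SBE2.1 had 1881, 1960.2 and 1943 at EN, against 7450.0, 8009 and 6188 at ED, with a log2 fold change of −1.90 (SE 0.12), whereas SBE2.2 was not called at −0.09 (SE 0.14). The isoamylase subunit ISA2 and the ADP-glucose pyrophosphorylase large subunits APL2 and APL3 had −1.26 (SE 0.16), −1.53 (SE 0.15) and −1.22 (SE 0.17). The small subunit APS1 was not called at −0.38 (SE 0.14). In sucrose synthesis and export 2 of 16 genes rose and 1 fell, with a median of 0.23, against 17.3% called over all genes tested. The cytosolic fructose-1,6-bisphosphatase cFBP, which feeds triose phosphates into sucrose, had 6663, 7093 and 6819.9 at EN, against 24455, 22635 and 26802 at ED, with a log2 fold change of −1.84 (SE 0.11). The sucrose-phosphatase SPP3B had a log2 fold change of 1.34 (SE 0.12), and the phloem loader SUC2 one of 1.02 (SE 0.11), a call lost without ED library 3 or EN library 3. The 4 sucrose-phosphate synthases were not called, with log2 fold changes from −0.53 to 0.28.

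**Figure D2:**
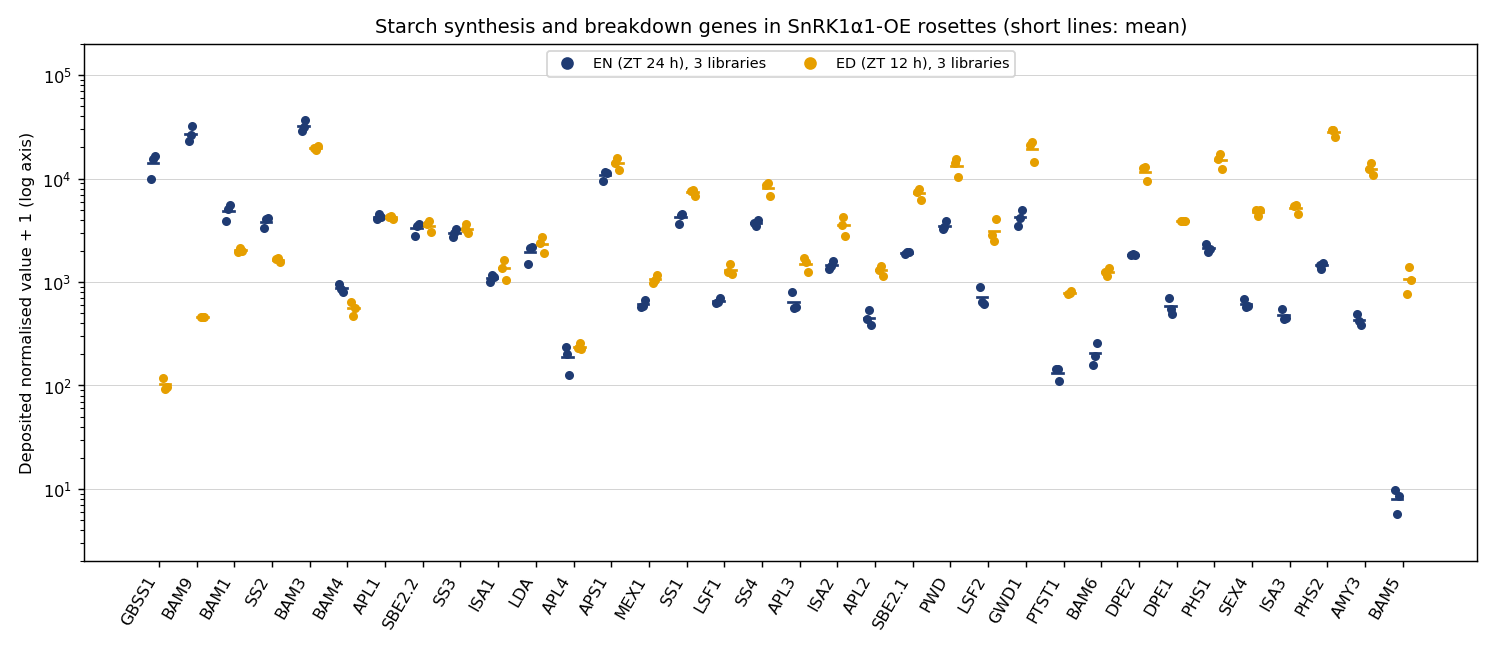
Deposited normalised value plus 1 (log axis) of the 34 genes of starch synthesis and breakdown tested in SnRK1α1-OE, ordered by log2 fold change. Each point is 1 library, with the 3 EN libraries left of the 3 ED libraries and a bar at each mean. GBSS1 and BAM9 stand highest at EN relative to ED and BAM5 and AMY3 lowest.

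Of the 9 subunits of SnRK1 and its upstream kinases, 1 was called, against 17.3% of all genes tested. SnRK1α1 itself, whose count includes the transgene, had a log2 fold change of −0.08 (SE 0.097) and was not called. SnRK1β1, a regulatory beta subunit, was the member that rose. It had 2524, 3538 and 3413 at EN, against 703, 637 and 571 at ED, and its log2 fold change was 2.30, with an SE of 0.15 (adjusted p = 3.5e-06). SnRK1α2, SnRK1β2, SnRK1β3, SnRK1βγ, KING1, SnAK1 and SnAK2 had log2 fold changes between −0.33 and 0.37. Genes listed as induced by SnRK1 or by darkness rose in 13 of 18 cases and 1 fell, with a median of 2.04. Some members, among them AT3G06070, ERF107 and AT3G62550, were also named by the study from these samples. The count of this list is therefore not fully independent evidence. DIN6 (ASN1), the dark-inducible asparagine synthetase, had 283, 665 and 445 at EN, against 45.2, 36.9 and 21.8 at ED, with a log2 fold change of 3.68 (SE 0.35). DIN10, a raffinose synthase, had 9424, 14038 and 13398 at EN, against 1050.1, 1288 and 818 at ED, with a log2 fold change of 3.55 (SE 0.20), and DIN1 (SEN1) one of 3.54 (SE 0.26). BXL1, a beta-xylosidase of the cell wall, had 12127, 20698 and 20351 at EN, against 274, 251 and 269 at ED, and its log2 fold change was 6.02, with an SE of 0.19 (adjusted p = 4.29e-08). BT1 and BT2 are scaffold proteins with BTB and TAZ domains. BT1 had 3542, 7085 and 7019 at EN, against 562, 553 and 615 at ED, a ratio of geometric means (value plus 1) of 9.71, and BT2 had a log2 fold change of 1.07 (SE 0.13), a call lost without EN library 2. BGAL4, a beta-galactosidase, had 1.02 (SE 0.13), a call lost without ED library 2, ED library 3 or EN library 3, and DIN2 was below the filter. DIN3 and DIN4, subunits of the branched-chain keto acid dehydrogenase, had 0.40 (SE 0.16) and 0.47 (SE 0.13), DIN9 and DIN11 had 0.09 (SE 0.20) and −0.03 (SE 0.27), and none of these was called. AT3G62550, annotated as an adenine nucleotide alpha hydrolase-like protein, had 254, 119 and 172 at EN, against 7498, 5524 and 9272 at ED, and its log2 fold change was −5.38, with an SE of 0.27 (adjusted p = 5.88e-07). It was the only gene of this list to fall. Of the 17 genes of trehalose 6-phosphate (Tre6P) synthesis and breakdown, 7 rose and 2 fell. TPS1, the active Tre6P synthase, was not called, with 1836, 1907 and 1669.6 at EN, against 1429.9, 1559 and 1077 at ED. Among the class II TPS proteins, which lack that activity, TPS8, TPS9, TPS10 and TPS11 had log2 fold changes of 2.45 (SE 0.15), 3.10 (SE 0.15), 2.18 (SE 0.11) and 3.46 (SE 0.18), and TPS6 had one of 1.46 (SE 0.14). TPS5 was the class II gene with the opposite direction, with 516, 397 and 505 at EN, against 1501, 1714 and 1705 at ED and a log2 fold change of −1.80 (SE 0.14). Of the Tre6P phosphatases, TPPA and TPPH rose, with 2.35 (SE 0.12) and 1.30 (SE 0.23), and TPPE fell, with −1.92 (SE 0.19). TPPF, with 253, 187 and 199 at EN, against 405, 372 and 484 at ED, stayed just below the limit at −0.98 (SE 0.17), which it passed without ED library 1, ED library 2 or EN library 1.

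Among the bZIP factors of groups C and S1, 2 of 9 rose and 1 fell. bZIP63, a group C factor that SnRK1 phosphorylates, had 3634, 3473 and 3381 at EN, against 216, 197 and 242 at ED, and it rose (adjusted p = 2.37e-08). bZIP9 had a log2 fold change of 1.51 (SE 0.17), and the S1 factor bZIP11 one of −1.39 (SE 0.16). Genes of amino acid breakdown were mostly below the limit, with 3 of 16 higher and 1 lower. PRODH1, the proline dehydrogenase, had 7274, 7938 and 7791 at EN, against 360.3, 394 and 291 at ED, and its log2 fold change was 4.47, with an SE of 0.13 (adjusted p = 2.37e-08). HML1 and MCCA, of leucine breakdown, had log2 fold changes of 1.92 (SE 0.12) and 1.38 (SE 0.14), and BCAT1 one of −1.09 (SE 0.14). Against 17.3% called over all genes tested, 3 of 19 autophagy genes rose and none fell (median 0.43). Given by their log2 fold changes, they were ATG8E, a ubiquitin-like protein of the autophagosome (2.20, SE 0.16), ATG5 (1.63, SE 0.12) and ATG13A (1.12, SE 0.18), the last lost without ED library 3 or EN library 3. Of 18 genes of nitrogen assimilation, 5 rose and none fell. The nitrate reductase gene NIA1 had 14298, 16643 and 16565 at EN, against 974, 942 and 806 at ED, with a log2 fold change of 4.13 (SE 0.12), and NIA2 had 139386, 166422 and 177820.1 at EN, against 15144, 13047 and 14004 at ED, with one of 3.51 (SE 0.12). Both nitrate reductase genes thus rose, while the nitrite reductase NIR1, at 0.41 (SE 0.11), and the plastidial glutamine synthetase GLN2, at 0.05 (SE 0.099), were not called. ASN2 and GDH1, an asparagine synthetase and a glutamate dehydrogenase, had log2 fold changes of 1.33 (SE 0.10) and 1.26 (SE 0.11). The ferredoxin-dependent glutamate synthase GLU1 was not called at 0.90 (SE 0.17), and passed the limit without ED library 2 or EN library 1.

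Of 20 light-harvesting genes 7 rose and none fell, and the list's median was 0.45. LHCB2.1, of the main antenna of photosystem II, had 90625, 108460.0 and 104858 at EN, against 3962, 4500.3 and 4802 at ED, and its log2 fold change was 4.52, with an SE of 0.12 (adjusted p = 1.45e-08). LHCB2.2 and LHCB2.3 had log2 fold changes of 3.48 (SE 0.12) and 4.16 (SE 0.15), and LHCB4.2, of the minor antenna, one of 2.36 (SE 0.13). LHCB1.1 had 226427, 265020.5 and 213633 at EN, against 38024, 45350.5 and 44327 at ED, with a log2 fold change of 2.46 (SE 0.12), while LHCB1.2 and LHCB1.3 were not called, at −0.38 (SE 0.12) and 0.37 (SE 0.097). The coding sequences of these LHCB1 genes, and those of LHCB2.1 and LHCB2.2, are nearly identical, so the split of reads among them is uncertain, and 37.6% of the LHCB2.3 span is shared with an opposite-strand gene. None of the 6 genes of the photosystem I antenna (LHCA1 to LHCA6) was called, with log2 fold changes from −0.36 to 0.64. LHCB3, at 1.01 (SE 0.12), lost its call without ED library 1, ED library 3 or EN library 2. The Calvin-Benson cycle list had 1 gene higher and 1 lower of 19, against 17.3% called over all genes tested. RCA, the activase of Rubisco, had 454221, 619758 and 662900.4 at EN, against 219132, 231332 and 247248 at ED, with a log2 fold change of 1.30 (SE 0.14) that was 0.96 and not called under quantile normalization. CP12-2, a regulator of the cycle, had one of −1.03 (SE 0.17), a call lost without ED library 3 or EN library 2 and under quantile normalization. The 4 Rubisco small subunit genes, with near-identical copies, had log2 fold changes from −0.43 to 0.15 and were not called. In chlorophyll synthesis 4 of 18 genes rose and 2 fell. HEMA1, the glutamyl-tRNA reductase that commits glutamate to tetrapyrroles, had 20655, 27713 and 26474 at EN, against 1794, 2021 and 2316 at ED, and its log2 fold change was 3.60, with an SE of 0.15 (adjusted p = 1.66e-07). CHLH, a subunit of magnesium chelatase, had 104429, 151291 and 159301 at EN, against 23779, 30397 and 23164 at ED, with a log2 fold change of 2.41 (SE 0.17). CRD1, a subunit of the Mg-protoporphyrin cyclase, had 2.05 (SE 0.14), and CAO, which makes chlorophyll b, had 3.33 (SE 0.14). PORB and PORC, the light-dependent protochlorophyllide reductases, fell, with −1.57 (SE 0.11) and −1.07 (SE 0.097), the second lost under quantile normalization.

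Flavonoid and anthocyanin genes were lower at EN. Of 13 tested, 12 fell, none rose and the median was −2.06. MYB75 (PAP1), an activator of anthocyanin synthesis, had 57.9, 92.3 and 76.0 at EN, against 582, 756 and 807 at ED, and its log2 fold change was −3.24, with an SE of 0.21 (adjusted p = 2.92e-06). LDOX and DFR, the anthocyanin branch enzymes, had 406, 636 and 363 at EN, against 2383, 3111 and 3145 at ED and a log2 fold change of −2.65 (SE 0.21) for LDOX, and one of −2.25 (SE 0.23) for DFR. The flavonol regulators MYB11, MYB12 and MYB111 had −2.06 (SE 0.28), −1.60 (SE 0.37) and −1.93 (SE 0.18), with all 6 values under 120 for MYB11 and MYB12. CHS, chalcone synthase, the entry enzyme, was the member not called, with 14318, 17705 and 20856 at EN, against 16312, 16019 and 19597 at ED and a log2 fold change of 0.02 (SE 0.15). FLS1, a flavonol synthase, had −1.06 (SE 0.17), a call lost without ED library 3 or EN library 2. The gene F3H is overlapped over 94.5% of its span by an opposite-strand gene and was at 0 in all 6 libraries, so its level cannot be read. Cold-regulated genes fell in 7 of 10 cases and 2 rose (median −3.45). COR15A, which protects plastid membranes in the cold, had 104, 52.9 and 70.4 at EN, against 4949, 5201 and 7477 at ED, and its log2 fold change was −6.29, with an SE of 0.24 (adjusted p = 1.37e-07). COR15B had 116, 59.5 and 72.3 at EN, against 6768, 7062 and 9385 at ED, with a log2 fold change of −6.57 (SE 0.23), and 25.4% of its span is shared with an opposite-strand gene. COR27 and COR28, repressors that act in the clock and in freezing tolerance, had 109, 99.95 and 108 at EN, against 1493, 1387 and 1758 at ED for COR27, with log2 fold changes of −3.85 (SE 0.14) and −5.80 (SE 0.38). RD29A had a log2 fold change of −2.24 (SE 0.20), while COR47 was not called at −0.68 (SE 0.12). The CBF activators sit side by side on 1 chromosome as similar copies and gave few reads, so their differences are uncertain. CBF3 had 4.87, 0.00764 and 0.952 at EN, against 43.3, 44.3 and 49.0 at ED, CBF2 had 48.4, 24.5 and 23.5 at EN, against 7.13, 2.18 and 2.24 at ED, and CBF1 was below the filter. After the authors' scaling, a library without a read can have a value just above 0. GOLS3, a galactinol synthase, had 45.6, 21.7 and 18.8 at EN, against 10.2, 0.103 and 4.31 at ED, a call lost without EN library 1.

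Genes of iron homeostasis fell in 13 of 23 cases and 2 rose, with a median of −1.13. IMA1, a peptide that signals iron deficiency, had 852, 373 and 439 at EN, against 3872, 2382 and 4124 at ED, and its log2 fold change was −2.69, with an SE of 0.30 (adjusted p = 0.000108), and IMA2, a neighbouring gene of similar sequence with which reads may be shared, had −2.09 (SE 0.28). IMA3 and the iron-responsive genes IRP3, IRP4 and IRP6 had log2 fold changes of −1.36 (SE 0.17), −1.62 (SE 0.11), −1.90 (SE 0.21) and −1.13 (SE 0.13). PYE, a bHLH factor of the deficiency response, had −1.46 (SE 0.13), and bHLH100 had −1.16 (SE 0.16), while bHLH38, bHLH39 and bHLH101 were not called, at −0.46 (SE 0.18), −0.36 (SE 0.16) and −0.70 (SE 0.19). BTS, a ubiquitin ligase that limits iron uptake, had 5641, 6256 and 7613 at EN, against 15539, 16156 and 9045 at ED, and its call was lost without ED library 1, ED library 2 or EN library 1 and under both other scalings. FSD1, the iron superoxide dismutase of plastids, had 43.3, 59.4 and 102 at EN, against 188, 750.4 and 715 at ED, with a log2 fold change of −2.84 (SE 0.51) and 1 ED library well below the other 2. The iron store proteins differed among themselves. FER1 had 1902, 2197 and 2448 at EN, against 524, 491 and 585 at ED, with a log2 fold change of 2.03 (SE 0.13), although 63.6% of its span is shared with an opposite-strand gene, FER3 had one of −1.49 (SE 0.13) and FER4 was not called at 0.58 (SE 0.12). NEET, an iron-sulfur protein, had 838, 956 and 914 at EN, against 143, 162 and 220.5 at ED, with a log2 fold change of 2.38 (SE 0.17). In the sulfur list 1 gene rose and 3 fell of 13. APR2, the reductase of activated sulfate, had 7399, 7082 and 8273 at EN, against 1077, 1105 and 1318 at ED, with a log2 fold change of 2.70 (SE 0.12) and 33.2% of its span shared with an opposite-strand gene, while APR1 and APR3 were not called. GGCT2;1, which breaks down glutathione, had 17.4, 19.8 and 18.8 at EN, against 178, 222 and 221 at ED, with a log2 fold change of −3.40 (SE 0.22), and LSU3 had one of −1.72 (SE 0.21). LSU2, at −1.04 (SE 0.22), lost its call without ED library 3, EN library 2 or EN library 3.

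Of 15 abscisic acid receptors and clade A phosphatases tested, 7 rose and none fell (median 0.81). Among them were 6 receptors, given by their log2 fold changes, PYR1 (1.54, SE 0.12), PYL2 (2.21, SE 0.32), PYL4 (1.37, SE 0.12), PYL5 (2.51, SE 0.13), PYL6 (2.50, SE 0.27) and PYL8 (1.45, SE 0.11). PYL8 had 6323, 7295 and 6749 at EN, against 2591, 2357 and 2485 at ED. HAB1, a phosphatase that these receptors inhibit, had 3375, 3267 and 4197 at EN, against 933, 819.7 and 772 at ED, with a log2 fold change of 2.10 (SE 0.13), while ABI1, ABI2, HAB2 and PP2CA were not called. Genes of ribosome assembly fell in 6 of 10 cases and none rose (median −1.20). NUC1, the nucleolin that organises ribosomal RNA genes, had 6177, 4015 and 3542 at EN, against 16585, 17646 and 17834 at ED, and its log2 fold change was −1.96, with an SE of 0.19 (adjusted p = 3.45e-05). NOP56 and NOP58, core proteins of the RNA-guided methylation complex, had log2 fold changes of −1.33 (SE 0.19) and −1.36 (SE 0.23). In all 3 genes EN library 1 was the EN library nearest to ED. CBF5, the pseudouridine synthase of the nucleolus, had −1.17 (SE 0.20) and lost its call without EN library 3. None of the 7 cell division genes was called, with log2 fold changes from −0.81 to 0.15. MCM2 and CYCB1;1 passed the adjusted p of the limma test but not the fold threshold. Salicylic acid defence genes varied among the pools of each time, with the sum of the 12 genes at 81690, 45900 and 77690 at EN, against 109000, 46340 and 35270 at ED. The pathogenesis-related genes PR1, PR2 and PR5 were not called, and PR1 had 25694, 11353 and 15371 at EN, against 32021, 14233 and 9391 at ED. ICS1, the synthase for salicylic acid precursors, had 4299, 3312 and 4917 at EN, against 2158, 1167 and 805 at ED, with a log2 fold change of 1.70 (SE 0.31), and PBS3, which acts after it, had one of 2.03 (SE 0.37). FMO1, ALD1 and PAD4 were the other 3 of the 5 genes that rose. ALD1 lost its call without EN library 1 and PAD4 without ED library 2, ED library 3 or EN library 1. Without EN library 1 the list had 3 genes called, and 2 in a fit of all 18 libraries. SAG12, the classic gene of late leaf senescence, was at 0 in all 6 libraries, and ORE1, a NAC factor of ageing leaves, had 164, 159 and 177 at EN, against 16.4, 12.6 and 5.63 at ED, with a log2 fold change of 3.85 (SE 0.36). Of the 4 senescence markers tested, ORE1 rose, NYE2 fell with a log2 fold change of −1.77, and NYE1 and PAO were not called.

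**Figure D3:**
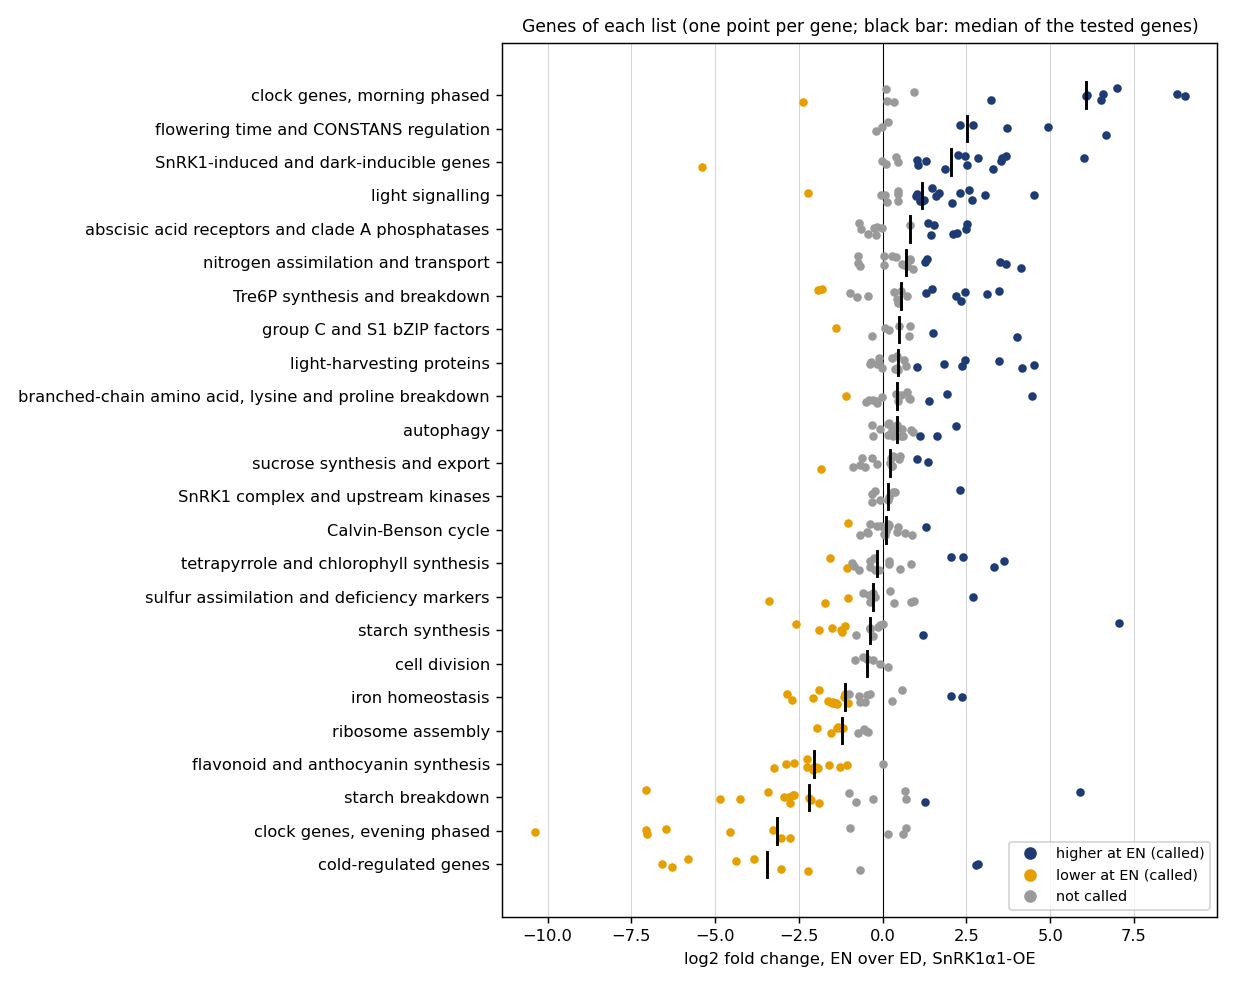
Log2 fold change, EN over ED in SnRK1α1-OE, of the genes of 24 lists, 1 point per gene tested, with a black bar at each list's median. Blue points rose, orange points fell and grey points were not called. The medians run from −3.45 for the cold-regulated genes to 6.08 for the morning-phased clock genes.

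Outside the lists, the rule for the 15 largest rises and falls also named genes of other kinds. AT1G26790, annotated as a Dof-type zinc finger protein, had 1153, 1159.7 and 1409 at EN, against 2.05, 0.0316 and 2.10 at ED, and the EN libraries held 3924 of its reads in all against 4 at ED, a ratio of 886 (95% exact interval 346 to 3250, covering counting error only). AT3G09450, annotated as a fusaric acid resistance family protein, had 1166, 1197 and 2484 at EN, against 1.07, 2.15 and 5.18 at ED, with EN library 3 above the other 2. PKS4, a phytochrome kinase substrate that takes part in phototropism, had 503, 691 and 731 at EN, against 6.19, 8.37 and 5.42 at ED, with a log2 fold change of 6.39 (SE 0.25). CLC-B, a chloride channel family member, had 1689, 3037 and 2798 at EN, against 34.0, 44.1 and 31.2 at ED, with a log2 fold change of 6.04 (SE 0.23). DREB2D, an AP2-type transcription factor, had 96.5, 167 and 119 at EN, against 4.05, 0.0316 and 0.044 at ED, and 4 reads in all at ED. Among the falls, AT1G07050, with a CCT domain as in CONSTANS, had 22.2, 30.1 and 18.8 at EN, against 3465, 3599.6 and 4315 at ED, and its log2 fold change was −7.28, with an SE of 0.19 (adjusted p = 1.45e-08). CSLA1, a cellulose synthase-like protein, is also in a list of the study described below and had 1.81, 1.95 and 50.3 at EN, against 755, 1365 and 1162 at ED, and EN library 3 stood far above the other 2. IGMT5, an O-methyltransferase of indole glucosinolates, had 23.1, 39.6 and 55.2 at EN, against 2452, 2741 and 3591 at ED, with a log2 fold change of −6.25 (SE 0.28). AT1G73325, a Kunitz-type protease inhibitor, had 2.80, 13.2 and 22.4 at EN, against 1246, 1397 and 1347 at ED, with a log2 fold change of −6.94 (SE 0.54). CDA6, a cytidine deaminase family member, had 3.90, 0.00517 and 0.00933 at EN, against 149, 171 and 186 at ED. AT1G11210, AT1G56300 and AT3G10185 had log2 fold changes of −6.40 (SE 0.55), −6.57 (SE 0.23) and −5.88 (SE 0.46). AT3G10185 gave 3 reads in all at EN, a ratio of 109 in favour of ED (95% exact interval 37 to 533). The last list holds genes that the study names for the contrast of SnRK1α1-OE with Col-0. It was chosen on these samples and is not independent evidence. Of 19 members tested, 4 rose and 6 fell. Among these, AOC2, an allene oxide cyclase of jasmonate synthesis, had 936, 1355 and 1224 at EN, against 26378, 25989 and 23883 at ED, with a log2 fold change of −4.45 (SE 0.14).

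The same contrast in Col-0 called 4072 of 19594 genes (20.8%), with 1495 higher (7.63%) and 2577 lower (13.2%) at EN. In sesquiα2 it called 3345 of 19699 (17%), with 1652 higher (8.39%) and 1693 lower (8.59%). The upward share of the Col-0 calls was 36.7% with the deposited values, 50.2% with median-ratio scaling, 49% with quantile normalization and 47% with edgeR. In 19359 genes tested in both SnRK1α1-OE and Col-0, 2445 were called in both, all of them in the same direction. They made up 73.4% of the SnRK1α1-OE calls and 60.7% of the Col-0 calls. The log2 fold changes of the 2 lines had a Pearson r of 0.868 and a Spearman rho of 0.789 across these genes, which are not independent replicates. Between SnRK1α1-OE and sesquiα2 the Pearson r was 0.896 across 19346 genes. The median log2 fold change was −0.03 in SnRK1α1-OE and −0.16 in Col-0. Over the genes tested for the difference between the lines, its median was 0.14, and 0.01 with median-ratio scaling. Of the 885 genes called in SnRK1α1-OE and not in Col-0, 1 had a difference with an adjusted p under 0.05.

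**Figure D4:**
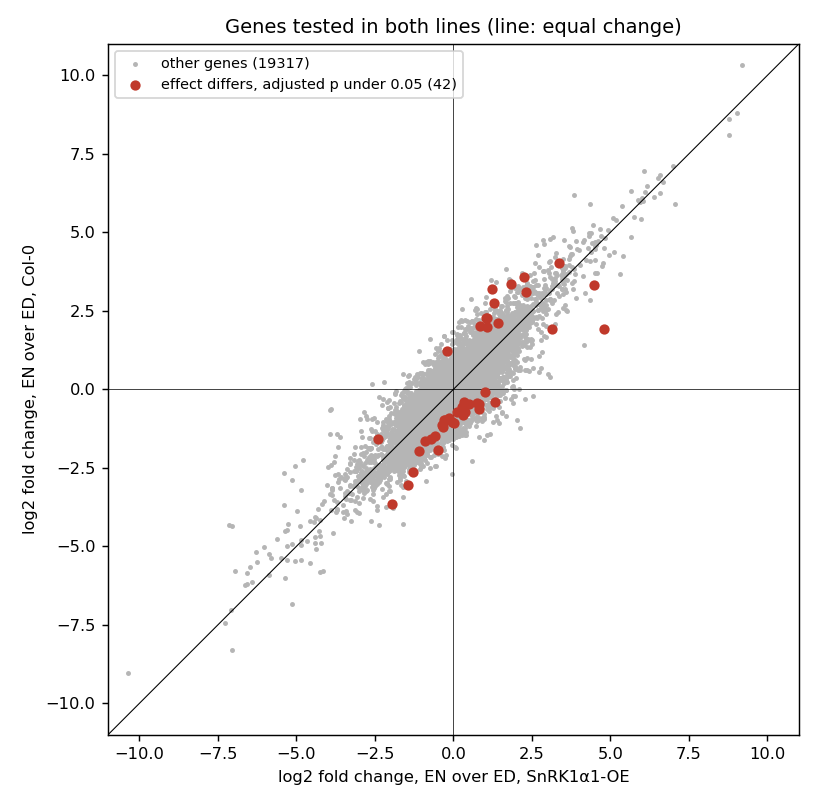
Log2 fold change, EN over ED, in SnRK1α1-OE (horizontal) and in Col-0 (vertical) for 19359 genes tested in both. The diagonal marks equal change, and red points are the 42 genes whose change differed between the lines. Most genes lie along the diagonal, and 32 of the 42 red points had the smaller absolute change in SnRK1α1-OE with the deposited values. This split was not counted under other scalings.

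The difference between the diel changes of SnRK1α1-OE and Col-0 was tested directly in 20041 genes, and 42 (0.21%) had an adjusted p under 0.05. It was positive in 29 and negative in 13, and 32 had the smaller absolute change in SnRK1α1-OE, a split counted with the deposited values only. AT1G71360, annotated as a galactose-binding protein, had 1035, 1147 and 1182 at EN and 606, 708 and 616 at ED in SnRK1α1-OE, against 232, 261 and 282 at EN and 370.1, 411 and 421 at ED in Col-0, a difference of 1.44 (SE 0.16, adjusted p = 0.0118) between changes of 0.80 and −0.63. AT1G71360 is in the list that the study chose on these samples. Its level was also higher in SnRK1α1-OE at both times, without overlap. MS2, a methionine synthase, had 2796, 2609.9 and 2814 at EN and 7429.5, 8446 and 6546 at ED in SnRK1α1-OE, against 1682, 1906 and 2310.4 at EN and 17851, 15097 and 15668 at ED in Col-0, a difference of 1.61 (SE 0.18, adjusted p = 0.0118). CYP79F1, which starts the synthesis of methionine-derived glucosinolates, had 2556, 1806 and 1801 at EN and 8109, 8339 and 7028 at ED in SnRK1α1-OE, against 1247, 1097 and 1298 at EN and 19083, 12582 and 14468 at ED in Col-0, a difference of 1.70 (SE 0.24, adjusted p = 0.0494). For MS2 and CYP79F1 the ED level was lower and the night-time fall smaller in SnRK1α1-OE. MIOX2, a myo-inositol oxygenase, had the largest difference, 2.87 (SE 0.43, adjusted p = 0.0494), with 233, 240.4 and 208 at EN and 9.23, 6.38 and 6.46 at ED in SnRK1α1-OE, against 98.5, 166 and 107 at EN and 24.7, 48.7 and 25.3 at ED in Col-0. Among the genes listed as induced by SnRK1 or by darkness, the changes of 3 differed, and each was smaller in SnRK1α1-OE. They were AT3G06070, with 2.24 in SnRK1α1-OE and 3.59 in Col-0, ERF107, with 1.30 and 2.76, and BT2, with 1.07 and 2.26, and their differences were −1.35 (SE 0.16, adjusted p = 0.0118), −1.46 (SE 0.21, adjusted p = 0.0494) and −1.20 (SE 0.18, adjusted p = 0.0494). AT3G06070 and ERF107 are also in the study's list, which was chosen on these samples, so their differences are not independent evidence. In all 3 genes the ED values of SnRK1α1-OE lay above those of Col-0, from 3825 to 4660.5 against 2268 to 2552 for BT2. PRODH1 rose more in SnRK1α1-OE, by 1.15 (SE 0.18, adjusted p = 0.0494). AT2G43150, an extensin-like protein, and PGDH1, of serine synthesis, had differences of 1.75 (SE 0.23, adjusted p = 0.032) and 0.90 (SE 0.14, adjusted p = 0.0494), and the uncharacterized AT1G52342 one of −1.40 (SE 0.22, adjusted p = 0.0494). None of the clock, starch, light-harvesting or flavonoid genes had a difference with an adjusted p under 0.05. Of the 12 genes examined one by one for this difference, PRODH1, PGDH1 and AT5G43500 did not pass under edgeR, median-ratio scaling or quantile normalization. With 1 of the 12 libraries left out, each of the 12 genes kept its call in 2 to 7 of 12 fits. The count was unstable. It was 21 with edgeR on recovered reads, 21 with quantile normalization and 18 with median-ratio scaling, and the positive share was 23.8%, 38.1% and 33.3% there, against 69% with the deposited values. It was 5 without the robust setting. It was 0 without SnRK1α1-OE ED library 1, SnRK1α1-OE EN library 1 or 2, Col-0 ED library 3 or Col-0 EN library 2. Without Col-0 ED library 1 it was 1132, and without SnRK1α1-OE ED library 2 it was 68. It lay between 3 and 5 without SnRK1α1-OE ED library 3, SnRK1α1-OE EN library 3, Col-0 ED library 2, or Col-0 EN library 1 or 3. With an unadjusted p under 0.05 there were 4110 genes (20.5%).

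**Figure D5:**
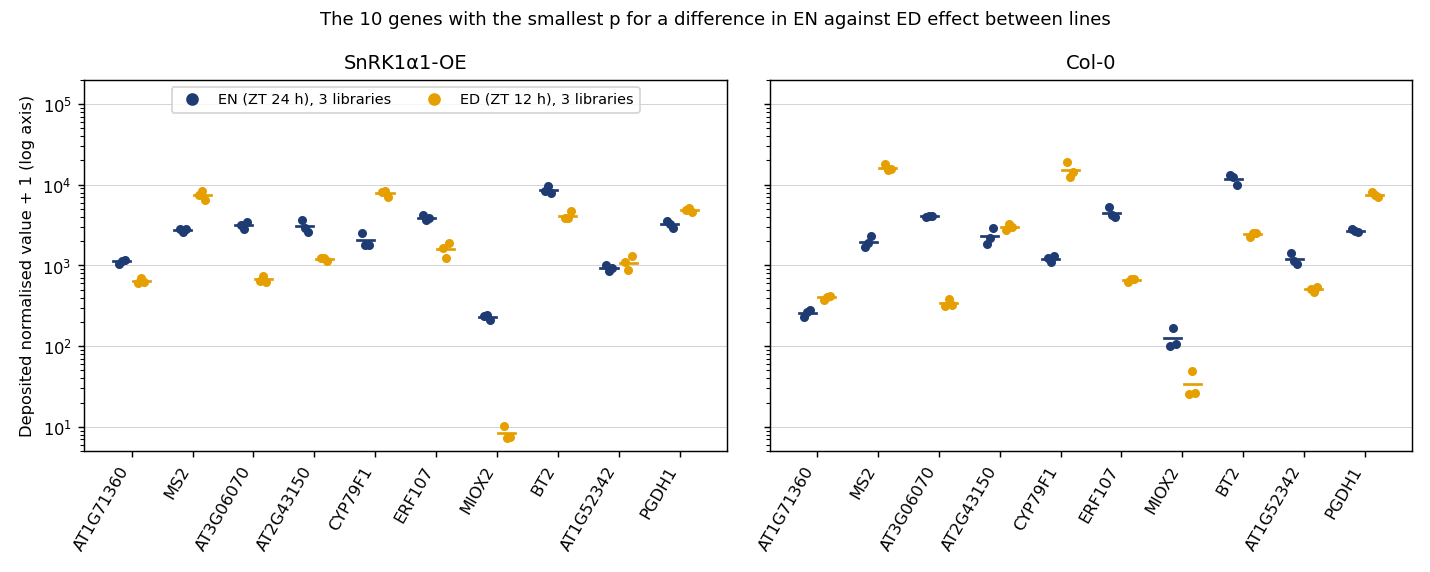
Deposited normalised value plus 1 (log axis) of the 10 genes with the smallest p for the difference between the EN against ED changes of SnRK1α1-OE (left) and Col-0 (right). Each point is 1 library, with the 3 EN libraries left of the 3 ED libraries and a bar at each mean. MIOX2 has ED values under 10 in SnRK1α1-OE and above 24 in Col-0.

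Against sesquiα2, whose plants had the BASTA selection that SnRK1α1-OE plants did not, 28 of 20118 genes (0.139%) differed, 14 in each direction, and 1915 (9.52%) had an unadjusted p under 0.05. GBSS1 had a log2 fold change of 7.06 in SnRK1α1-OE and 4.80 in sesquiα2, a difference of 2.25 (SE 0.27, adjusted p = 0.00593), with 9939, 15467 and 16629.6 at EN in SnRK1α1-OE and 14505, 18198 and 14407 at EN in sesquiα2. At ED it had 118, 91.9 and 96.2 in SnRK1α1-OE and 682, 562 and 452 in sesquiα2. The EN values of the lines overlapped and the ED values did not. Both other starch genes in the set, BAM3 and APL3, also had positive differences, of 1.20 (SE 0.16, adjusted p = 0.00887) and 1.40 (SE 0.21, adjusted p = 0.015). BAM3 was not called in SnRK1α1-OE. APL3 fell there (−1.22), so its positive difference was a smaller fall than in sesquiα2. HEMA1 differed by 0.95 (SE 0.17, adjusted p = 0.0405) and FER1 by 1.25 (SE 0.19, adjusted p = 0.015). The nicotianamine synthase NAS3 fell in SnRK1α1-OE (−1.39) and had 0.67 in sesquiα2, a difference of −2.07 (SE 0.32, adjusted p = 0.019). The sulfur deficiency markers GGCT2;1 and LSU3 had negative differences, of −2.03 (SE 0.26, adjusted p = 0.00691) and −1.60 (SE 0.28, adjusted p = 0.0399). 1 gene, AT1G71360, differed from both Col-0 and sesquiα2, with 1.11 (SE 0.17, adjusted p = 0.019) against the mutant. The count ranged from 10 without sesquiα2 EN library 3 to 75 without SnRK1α1-OE EN library 1, and was 52 with edgeR, 48 with median-ratio scaling and 48 with quantile normalization, of which 25%, 25% and 29.2% were positive. It was also lower without SnRK1α1-OE ED library 1 (14), ED library 2 (16) or EN library 3 (16), and was 47 without sesquiα2 ED library 3. The growth on BASTA plates and the genotype cannot be told apart in this comparison.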

How the data were processed

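RNA-seq libraries were made from poly(A) RNA of 18 pools of whole rosettes and read as paired ends. According to the submitters' processing notes, reads were handled with HISAT2, SAMtools, featureCounts and edgeR on TAIR10, and whether counting used strand is not given in the sources used here. The authors deposited 1 table of normalised signal values per gene, edgeR's adjusted counts multiplied by TMM (trimmed mean of M-values) factors. The totals lay between 37929523 and 37930213 in all 18 libraries, although the factors ran from 0.899 to 1.09. These values are thus counts scaled to a common total, without the TMM correction for composition. Whole reads were recovered by fitting them to these values, and the fitted reads gave back 590994 of 590994 values within 0.05 read. Even read numbers made up 63.5 to 67.2% of the recovered values from 1 to 20 per library, more than odd ones, so reads may not be independent fragments, and intervals cover counting error only.

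A gene was tested where 3 or more of the 6 libraries had a value of 10 or above. Values were tested as log2(value + 1) with limma 3.58.1 (R 4.3.3, statmod 1.5.0, robust eBayes, Benjamini-Hochberg adjustment over all genes tested). EN against ED was fitted within each line, and the difference between lines in a fit of the 12 libraries of both. edgeR 4.0.16 (quasi-likelihood, with TMM factors) on the recovered reads was an alternative. Other alternatives were pseudocounts of 0.125 and 4, no filter, median-ratio scaling, quantile normalization, a block for replicate number, a joint fit of all 18 libraries, omission of each library in turn and eBayes run without its robust setting. The p-values measure the spread between pools, and an exact permutation test of 3 against 3 cannot go below 0.1. Scripts were tested on simulated data. Gene names and coordinates were taken from the RefSeq annotation of TAIR10.1.

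Genes named in the text come from 32 gene lists, the 15 largest rises and 15 largest falls among called genes that did not overlap between times and had a mean of at least 100 in the higher time, and the 10 genes with the smallest p for the difference from Col-0. Not every list member is named, and those described were picked for their roles with their values in view. The comparison and the lists were chosen with earlier results of these data known.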

Additional observations from a re-analysis of the deposited data

Results flagged for a closer look

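The change between EN and ED differed between SnRK1α1-OE and Col-0 in 42 genes by limma's test of the difference itself, with an adjusted p under 0.05. Among the named genes, the log2 effect in SnRK1α1-OE minus that in Col-0 was 2.87 for MIOX2, 1.75 for AT2G43150, 1.70 for CYP79F1, 1.61 for MS2, 1.44 for AT1G71360, 1.15 for PRODH1, 0.90 for PGDH1 and 0.83 for AT5G43500. It was −1.46 for ERF107, −1.40 for AT1G52342, −1.35 for AT3G06070 and −1.20 for BT2. AT5G43500, AT1G71360, ERF107 and AT3G06070 are in the list that the study chose on these samples.

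The same test against sesquiα2 found 28 genes. Among the named genes, the log2 effect in SnRK1α1-OE minus that in sesquiα2 was 2.25 for GBSS1, 1.40 for APL3, 1.25 for FER1, 1.20 for BAM3, 1.11 for AT1G71360 and 0.95 for HEMA1. It was −2.07 for NAS3, −2.03 for GGCT2;1 and −1.60 for LSU3. Of the FER1 span, 63.6% is shared with a gene on the opposite strand.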

How the results depend on the processing

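The number of genes called between EN and ED in SnRK1α1-OE (3394) lay between 3295 and 3689 under the 9 alternatives that kept all libraries, and between 3022 without EN library 3 and 3800 without EN library 1. In Col-0 it ranged from 3565 to 4220 and in sesquiα2 from 3013 to 3353 with 1 library left out.

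The counts of differences moved far more. Against Col-0 (42), it was 523 with all 18 libraries in one fit, 21 with edgeR, 18 with median-ratio scaling, 21 with quantile normalization, 4 with no filter and 5 without the robust setting, and ranged from 0 to 1132 with 1 library left out. Against sesquiα2 (28), it was 52 with edgeR, 48 with median-ratio scaling and 48 with quantile normalization, and ranged from 10 to 75 with 1 library left out. The cause was not tested. Of the 12 named genes that differed from Col-0, 9 passed under edgeR, 9 under median-ratio scaling and 9 under quantile normalization, and the lost ones were PRODH1, PGDH1 and AT5G43500 each time. Without the robust setting 5 passed, and AT1G52342, BT2, ERF107 and MIOX2 were lost as well. With no filter 4 passed, and CYP79F1 was lost besides. With 1 library left out, each gene passed in 2 to 7 of 12 fits.

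With the replicate number as a block, the calls were 3369 in SnRK1α1-OE, 4157 in Col-0 and 3355 in sesquiα2, and the differences 5 against Col-0 and 11 against sesquiα2. Of the 12 named genes, AT1G71360, AT2G43150, CYP79F1 and MIOX2 passed with the block and the other 8 did not. The numbers were not taken to pair the libraries, since deviations of same-numbered EN and ED libraries correlated at −0.0393, 0.122 and −0.306 in SnRK1α1-OE, 0.365, 0.323 and 0.0553 in Col-0, and 0.124, −0.237 and 0.0169 in sesquiα2. The EN library correlated best with its own number in 1, 2 and 1 of 3 cases.

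With 3 pools at each time, differences between lines near the spread of the pools were not detectable with certainty. Genes with few reads at 1 time have folds that depend on the pseudocount.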
